A study of Mus musculus with 13 samples.

Results

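The 38 genes described here mark blood and lymphatic endothelium or encode the ligands and receptors of the VEGF and angiopoietin systems. They were chosen by gene symbol, and all 38 were found among the 22609 genes of the visceral fat table and among the 22609 genes of the E0771 tumour table. The fat libraries came from 4 samples labelled KO, for fat-specific loss of PD-L1, and from 3 WT samples, all of the C57BL/6 strain and all taken after HFD feeding, an abbreviation that the labels do not expand. The tumour libraries came from E0771 mammary tumours transplanted into hosts of the same strain, 3 in KO hosts and 3 in WT hosts. E0771 is a mouse mammary cancer cell line. The labels name no promoter or Cre line behind the deletion, no age, and no diet for the tumour hosts, and they do not say that each sample came from its own animal. The p-values therefore cover only how far these libraries scatter, which may be technical.

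Endothelial cells line vessels and are held together by junction proteins such as VE-cadherin, the product of Cdh5. VEGF ligands act on them through the tyrosine kinase receptors Kdr (VEGFR2), Flt1 (VEGFR1) and, mainly in lymphatic vessels, Flt4 (VEGFR3), with neuropilins as co-receptors. Angiopoietin 1, made by cells around the vessel, activates the receptor Tek (Tie2) and stabilises vessels, while angiopoietin 2, made by the endothelium itself, can oppose it, and adipocytes are a known source of VEGF-A in fat.

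In visceral fat, 26 of the 38 genes were lower in KO than in WT samples, 2 were higher (Nrp2 and Angpt2) and 10 did not pass the test. The test was limma with trend on log2(value + 1), with Benjamini-Hochberg adjustment over all 14455 genes tested and a threshold of 0.05. All 38 genes passed the filter on low values. The lower genes were 68.4% of the 38, while 17.4% of all genes tested were lower in KO fat and 16.8% were higher. The median log2 fold change of the 38 genes was -1.0, and 34 of them lay below 0, as did 7232 of all 14455 genes. In 19 of them, or 50%, the level was at least 2-fold lower and passed, against 7.9% of all genes tested. In tumours 0 of the 31 genes that could be tested passed.

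Fat values below are the deposited normalised values, in which each read was divided by 1 factor per library. They are given for KO replicates 1 to 4 and then for the WT columns numbered 1, 3 and 4 in the table. Each library held between 29362788 and 41534662 gene reads in fat and between 22834259 and 34706555 in tumours. Cd274, which encodes PD-L1 and is the targeted gene, averaged 544 ± 17.6 in KO fat and 590 ± 129 in WT fat (SD, n = 4 and 3), a log2 fold change of -0.10 (SE 0.15, limma adjusted p = 0.66). In tumours Cd274 averaged 2043 ± 432 normalised reads in KO hosts and 1584 ± 167 in WT hosts (SD, n = 3 each, edgeR adjusted p = 0.717). No fall of Cd274 passed the test. The loss is labelled as fat-specific, while bulk fat holds other cell types and the tumours were transplanted, so these values cannot check the deletion. KO and WT are used below as the labels give them.

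The promoters of the receptors Tie1, Flt1, Kdr and Tek are shown as examples of the 26 genes that were lower in KO fat. These 4 were picked with results known. Each is the RefSeq window of 250 bases before the RefSeq start on GRCm38.p6, the assembly of mm10, read 5′ to 3′ on the strand of the gene. GENCODE M21 places the Tie1 start at 118490061, so by that source most of the Tie1 window lies inside the gene. Capitals mark AGGAAG or ACAGGAA, letters bound by ETS factors, on either strand, so they can appear as CTTCCT or TTCCTGT, and the 2 motifs can overlap.
Tie1, chr4:118489850-118490099, minus strand: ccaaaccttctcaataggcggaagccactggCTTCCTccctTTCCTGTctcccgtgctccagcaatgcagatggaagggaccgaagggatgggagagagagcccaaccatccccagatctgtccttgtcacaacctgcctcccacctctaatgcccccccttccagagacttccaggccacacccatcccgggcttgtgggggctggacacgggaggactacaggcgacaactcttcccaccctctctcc
Flt1, chr5:147726012-147726261, minus strand: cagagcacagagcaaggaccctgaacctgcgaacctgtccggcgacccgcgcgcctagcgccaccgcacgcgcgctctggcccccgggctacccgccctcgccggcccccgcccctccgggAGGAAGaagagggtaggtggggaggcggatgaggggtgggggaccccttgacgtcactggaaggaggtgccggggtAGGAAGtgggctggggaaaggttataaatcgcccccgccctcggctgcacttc
Kdr, chr5:75978456-75978705, minus strand: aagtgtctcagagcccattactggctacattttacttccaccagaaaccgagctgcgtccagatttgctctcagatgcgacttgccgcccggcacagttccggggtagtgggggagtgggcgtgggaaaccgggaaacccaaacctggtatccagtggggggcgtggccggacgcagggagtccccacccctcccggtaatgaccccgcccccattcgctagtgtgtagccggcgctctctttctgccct
Tek, chr4:94739039-94739288, plus strand: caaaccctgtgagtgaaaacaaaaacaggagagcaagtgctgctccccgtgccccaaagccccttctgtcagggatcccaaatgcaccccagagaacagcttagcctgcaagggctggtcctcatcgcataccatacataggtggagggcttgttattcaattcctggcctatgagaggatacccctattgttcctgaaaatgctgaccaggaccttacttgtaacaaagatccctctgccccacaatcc
The RefSeq table held such a window for 20 of the 38 genes. AGGAAG was present in 8 of the 20 windows (40%) and in 32.3% of 27025 promoter windows in the table. ACAGGAA was present in 3 (15%) and in 8.13% of all windows, and the SOX letters AACAAT in 4 (20%) and in 10.9%. The KLF letters CCACCC were found in 12 of the 20 (60%) and in 30.6% of all windows, with matches in Kdr, Flt1 and Tie1. The GATA letters AGATAA were present in 2 (10%) and in 11.4%, and the hypoxia element letters ACGTG in 3 (15%) and in 18.5%. All motifs were searched on both strands, and a match is a description of the letters only. The Kdr and Tek windows hold neither of the 2 motifs marked in capitals, and no other ETS letters were searched.

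**Figure D1:**
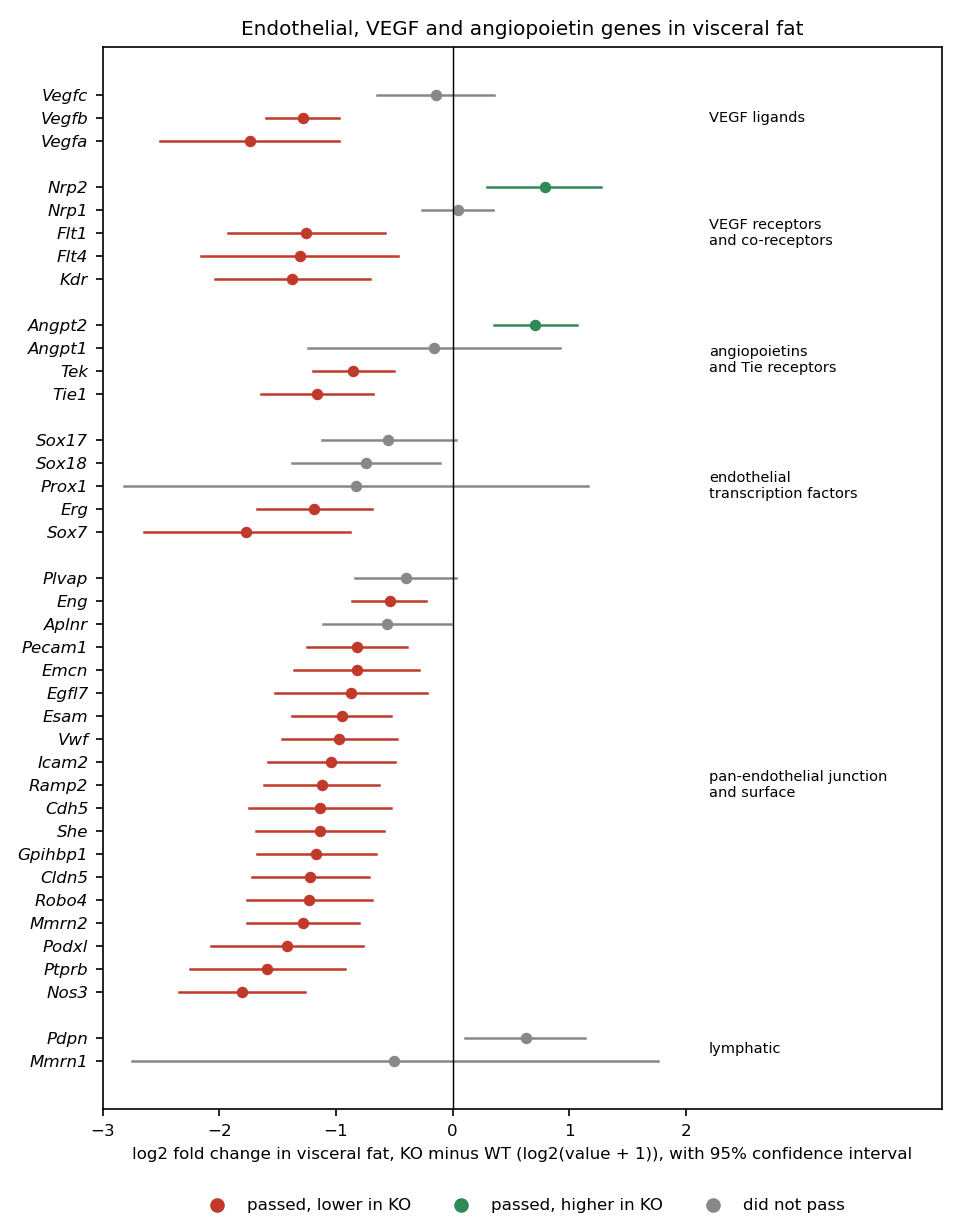
Log2 fold change in visceral fat, KO minus WT on the log2(value + 1) scale, for the 38 genes grouped by role, with points for the estimate and lines for the unadjusted 95% confidence interval. Red points passed the test and were lower in KO fat (26 genes), green points passed and were higher (2 genes), and grey points did not pass (10 genes).

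Of the VEGF ligands, 2 of 3 were lower in KO fat. Vegfa, which encodes the main endothelial growth factor and lies on GRCm38 at chr17:46016993-46032369 on the minus strand, had values of 2023, 1858, 3643 and 2414 in KO fat and 6141, 5987 and 13970 in WT fat. Every KO library lay below every WT library, and WT column 4 stood far above the other WT columns. Its log2 fold change was -1.74 (SE 0.34, limma adjusted p = 0.00566). Vegfb, which signals through Flt1 and lies at chr19:6982473-6987651 on the minus strand, had values of 929, 868, 1188 and 977 in KO fat and 2176, 2362 and 2681 in WT fat. The groups were far apart with little spread within each, and the log2 fold change was -1.28 (SE 0.14, limma adjusted p = 0.000982). Vegfc, the lymphatic growth factor that acts through Flt4, had values of 241, 211, 216 and 213 in KO fat and 172, 254 and 328 in WT fat. Here the KO libraries fell inside the range of the WT libraries, and the log2 fold change was -0.14 (SE 0.22, limma adjusted p = 0.646).

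The 3 VEGF receptor kinases were lower in KO fat, and the 2 co-receptors were not. Kdr, which carries most VEGF-A signalling in endothelium, had values of 1881, 1956, 4180 and 2980 in KO fat and 5820, 8751 and 6063 in WT fat. KO replicates 3 and 4 were above KO replicates 1 and 2, yet all 4 were below the lowest WT library, with a log2 fold change of -1.38 (SE 0.29, limma adjusted p = 0.00805). Flt1, a receptor that binds VEGF-A and VEGF-B and can act as a decoy, had values of 1133, 1728, 2908 and 2453 in KO fat and 4505, 5326 and 4099 in WT fat. The order of the KO libraries put replicates 3 and 4 highest again, and the log2 fold change was -1.26 (SE 0.30, limma adjusted p = 0.0127). Flt4 had values of 320, 256, 534 and 636 in KO fat and 652, 1114 and 1447 in WT fat. The highest KO library came close to the lowest WT library, and the log2 fold change was -1.31 (SE 0.37, limma adjusted p = 0.0252). Without WT column 3 the adjusted p of Flt1 was 0.0537, and Flt4 no longer passed without KO replicate 1 or 2 or WT column 3 or 4, with adjusted p up to 0.0843.

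Nrp1, a co-receptor of VEGF-A and semaphorins, had values of 12028, 12989, 13675 and 13431 in KO fat and 12842, 14180 and 10974 in WT fat. The groups overlapped, with a log2 fold change of 0.05 (SE 0.13, limma adjusted p = 0.813). Nrp2, a co-receptor of VEGF-C and semaphorins that lies at chr1:62703285-62818695 on the plus strand, had values of 5611, 8966, 8064 and 7672 in KO fat and 5371, 4613 and 3272 in WT fat. Every KO library was above every WT library, narrowly so for KO replicate 1 and WT column 1. Its log2 fold change was 0.79 (SE 0.21, limma adjusted p = 0.0214). The call was lost on leaving out KO replicate 2 or 4 or WT column 3 or 4, with adjusted p up to 0.0597. It was also lost with the column number as a replicate block (limma adjusted p = 0.0952).

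In the angiopoietin system both receptors were lower and 1 ligand was higher. Tek had values of 1570, 1398, 2082 and 1946 in KO fat and 2905, 3292 and 3167 in WT fat. The groups did not overlap, and the log2 fold change was -0.85 (SE 0.15, limma adjusted p = 0.00439). Tie1, the orphan receptor that pairs with Tek, had values of 1893, 1414, 2421 and 2128 in KO fat and 3442, 5305 and 4409 in WT fat. All KO libraries were below all WT libraries here too, with a log2 fold change of -1.16 (SE 0.21, limma adjusted p = 0.00436). Angpt2, at chr8:18690263-18741562 on the minus strand, had values of 1191, 1343, 1408 and 1329 in KO fat and 945, 866 and 629 in WT fat. Every KO library was above every WT library, a log2 fold change of 0.71 (SE 0.15, limma adjusted p = 0.00901). Angpt1 had values of 296, 231, 456 and 328 in KO fat and 205, 250 and 872 in WT fat. WT column 4 stood alone at the top and the other WT columns lay at the low end, and the log2 fold change was -0.16 (SE 0.47, limma adjusted p = 0.821).

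Within each library, the ratio of Angpt2 to Tek was 0.759, 0.961, 0.676 and 0.683 in KO fat and 0.325, 0.263 and 0.199 in WT fat. The ratio of Nrp2 to Kdr was 2.98, 4.58, 1.93 and 2.57 in KO fat and 0.923, 0.527 and 0.54 in WT fat. Both ratios separated the groups. They had to, since Angpt2 and Nrp2 were higher and Tek and Kdr lower in every KO library than in every WT library. The ratios thus add no evidence beyond the single genes. The ratio of Flt1 to Kdr, both lower in KO fat, overlapped between the groups. It was 0.602, 0.884, 0.696 and 0.823 in KO fat and 0.774, 0.609 and 0.676 in WT fat. These ratios are of normalised values that are not corrected for gene length, so only their difference between libraries can be read.

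**Figure D2:**
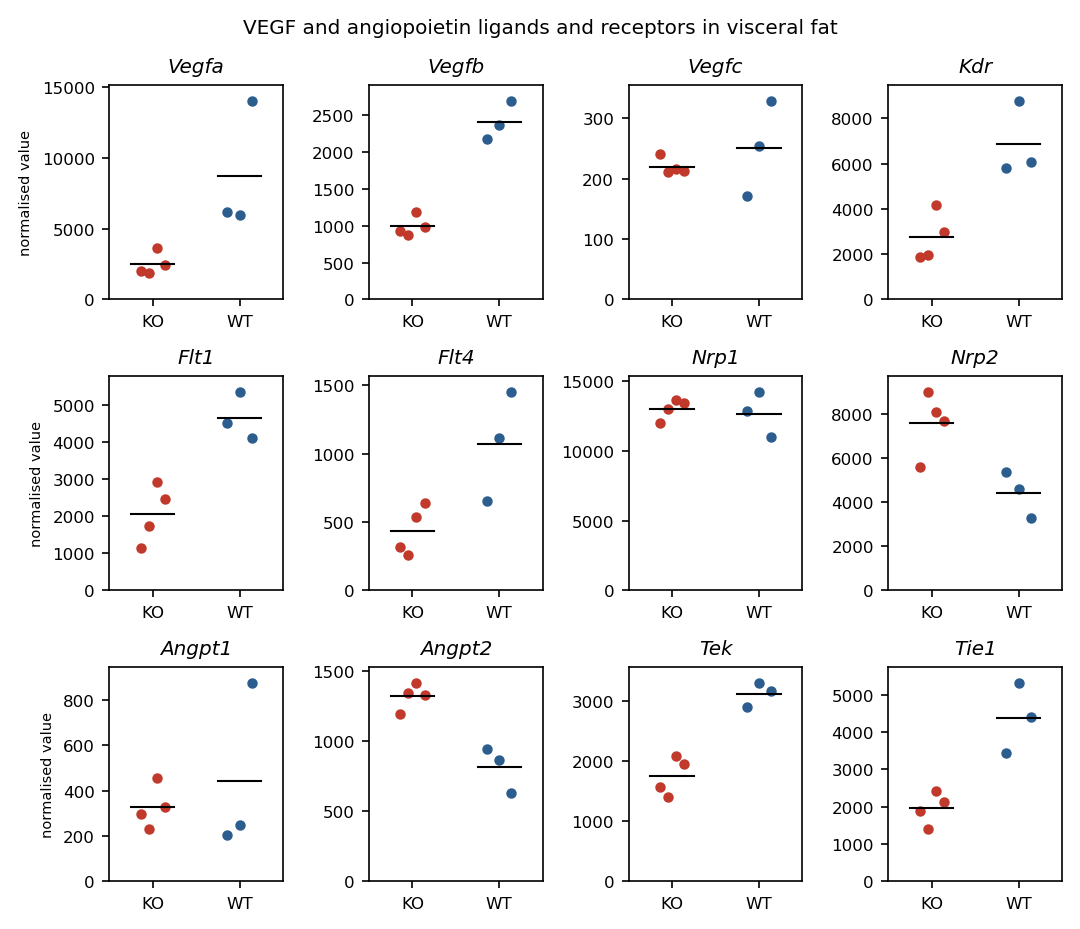
Deposited normalised values per library in visceral fat, on linear axes that start at 0, for VEGF and angiopoietin ligands and receptors, with KO on the left (4 libraries) and WT on the right (3 libraries) and a bar at the mean. Angpt2 and Nrp2 sit higher in KO fat, Vegfc, Nrp1 and Angpt1 overlap between the groups, and the other 7 genes sit lower in KO fat.

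Of the 19 genes of endothelial junctions, surface and secreted products, 17 were lower in KO fat and Plvap and Aplnr did not pass. Nos3, which encodes endothelial nitric oxide synthase and lies at chr5:24364810-24384474 on the plus strand, had values of 844, 669, 1363 and 1227 in KO fat and 3297, 3456 and 3650 in WT fat. The WT libraries were close together and the highest KO library was far below them. Its log2 fold change of -1.81 (SE 0.24, limma adjusted p = 0.00145) was the lowest of the 38. Ptprb, the phosphatase VE-PTP that restrains Tek and VE-cadherin signalling, had values of 2925, 4412, 6688 and 6596 in KO fat and 12446, 17795 and 14252 in WT fat. The gap between the groups was wide, and the log2 fold change was -1.59 (SE 0.29, limma adjusted p = 0.0047). Podxl, a sialomucin of the luminal surface, had values of 1582, 1036, 2641 and 2115 in KO fat and 4140, 4864 and 4975 in WT fat. KO replicates 3 and 4 were again the higher ones, and the log2 fold change was -1.42 (SE 0.28, limma adjusted p = 0.00668).

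Mmrn2, an extracellular matrix protein that binds VEGF-A, had values of 1564, 1416, 2442 and 2291 in KO fat and 4462, 5233 and 4082 in WT fat. Robo4, a guidance receptor of endothelium, had values of 1555, 1509, 2299 and 2185 in KO fat and 3360, 6030 and 4024 in WT fat. The groups did not overlap for either gene, and the log2 fold changes were -1.28 for Mmrn2 and -1.23 for Robo4. Cldn5, the tight junction claudin of endothelium, had values of 1389, 1153, 1283 and 1556 in KO fat and 2299, 4484 and 2924 in WT fat. Gpihbp1, which carries lipoprotein lipase to the capillary lumen, had values of 2331, 1763, 2523 and 2220 in KO fat and 3459, 6763 and 5132 in WT fat. The log2 fold changes were -1.22 for Cldn5 and -1.17 for Gpihbp1. Ramp2, a subunit of the adrenomedullin receptor, had values of 1158, 669, 1193 and 1200 in KO fat and 2109, 2552 and 2084 in WT fat. Esam, a junctional adhesion molecule, had values of 2774, 1968, 2600 and 2572 in KO fat and 3875, 6197 and 4481 in WT fat. KO replicate 2 was the lowest library for Ramp2 and Esam, whose log2 fold changes were -1.12 and -0.95. The limma adjusted p of these 6 genes ran from 0.00295 for Mmrn2 to 0.00583 for Esam.

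Cdh5 averaged 7475 ± 2410 in KO fat and 16106 ± 3642 in WT fat, and Pecam1, the adhesion molecule CD31, averaged 7247 ± 1558 in KO fat and 12647 ± 1680 in WT fat (SD, n = 4 and 3). Their log2 fold changes were -1.14 and -0.82 (limma adjusted p = 0.0125 and 0.0115), and both calls were lost without WT column 3, with adjusted p of 0.0562 and 0.0553. She, an adaptor protein, fell by 1.14 on the log2 scale, Icam2, a leukocyte ligand, by 1.04, and Vwf, the von Willebrand factor, by 0.97. Egfl7, a secreted endothelial protein, had a log2 fold change of -0.87 and Emcn, a capillary and venous sialomucin, one of -0.82. Eng, a TGF-beta co-receptor that macrophages can also carry, had the smallest fall among those that passed, at -0.54. Egfl7 no longer passed without KO replicate 1, 2 or 4 or WT column 3 or 4 (limma adjusted p up to 0.139). Emcn was lost without KO replicate 4 or WT column 3 or 4 (up to 0.0957). Eng was lost without KO replicate 2 or WT column 3 (up to 0.0825), and also with the column number as a replicate block. Plvap, the diaphragm protein of fenestrated capillaries, had a log2 fold change of -0.40 (SE 0.19, limma adjusted p = 0.133) and Aplnr, the apelin receptor, one of -0.56 (SE 0.24, limma adjusted p = 0.106).

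Of the 5 transcription factors, Erg and Sox7 were lower in KO fat. Erg, an ETS factor that maintains endothelial identity, had values of 445, 397, 726 and 587 in KO fat and 1100, 1399 and 1107 in WT fat. All KO libraries lay below all WT libraries, with a log2 fold change of -1.19 (SE 0.22, limma adjusted p = 0.00456). Sox7 averaged 403 ± 153 in KO fat and 1409 ± 686 in WT fat (SD, n = 4 and 3), a log2 fold change of -1.77 (SE 0.39, limma adjusted p = 0.00941). The other SOXF factors did not pass, with log2 fold changes of -0.55 for Sox17 (SE 0.25, limma adjusted p = 0.127) and -0.74 for Sox18 (SE 0.28, limma adjusted p = 0.0698).

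Of the 4 genes of lymphatic endothelium, Flt4 was lower, as given above, and the other 3 did not pass. Prox1, the factor that sets lymphatic identity, had values of 6.62, 14, 18.2 and 52.4 in KO fat and 8.6, 34.2 and 104 in WT fat. Mmrn1, a multimerin of lymphatic endothelium and platelets, had values of 398, 167, 332 and 803 in KO fat and 86, 695 and 2278 in WT fat. In both genes WT column 1 was lowest and WT column 4 highest among WT libraries, KO replicate 4 was highest among KO libraries, and the groups overlapped. The log2 fold changes were -0.83 for Prox1 (SE 0.87, limma adjusted p = 0.491) and -0.50 for Mmrn1 (SE 0.99, limma adjusted p = 0.729). Pdpn, podoplanin, which fibroblasts and macrophages can also carry, had values of 1873, 2494, 1336 and 1451 in KO fat and 1291, 1186 and 925 in WT fat. Every KO library was above every WT library, with a log2 fold change of 0.63 that did not pass (SE 0.23, limma adjusted p = 0.0608).

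Over the 38 genes, every KO library was below every WT library in 25 and above in 3, and the groups overlapped in 10. Among all genes tested, every KO library was below every WT library in 22.1% and above in 21.6%. The exact permutation test over the 35 relabellings of the libraries has a smallest two-sided p of 0.0286, which 21 of the 38 genes reached, Vegfa, Vegfb, Tek, Tie1, Angpt2 and Nos3 among them. It gave 0.0571 for Cdh5, Kdr, Flt1, Flt4, Nrp2, Emcn and Pdpn. KO replicates 3 and 4 were both above KO replicates 1 and 2 in 28 of the 38 genes (73.7%), an order seen in 26.8% of all genes tested. KO replicate 2 was the lowest KO library for 26 of the 38 genes and KO replicate 3 the highest for 27. Among WT libraries, column 1 was lowest for 25 genes and column 3 highest for 22. Of the 28 calls, 20 were kept under each of 12 alternatives.

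Bulk RNA cannot tell fewer cells of a type apart from less RNA per cell. Markers of some other cell types also moved between the fat groups, where 17.4% of all genes tested were lower in KO fat and 16.8% higher. The 10 adipocyte markers were all lower in KO fat, with summed values of 304131 to 488760 in KO fat and 987474 to 1073126 in WT fat. Adipoq, which encodes adiponectin, averaged 26767 ± 5873 in KO fat and 114654 ± 13459 in WT fat (SD, n = 4 and 3). Of 10 macrophage markers, 9 were higher in KO fat, with summed values of 228664 to 328049 in KO fat and 46511 to 130359 in WT fat. Itgax, the integrin CD11c, averaged 21485 ± 2448 in KO fat and 2783 ± 1784 in WT fat. Mesothelial markers were lower for 5 of 9 tested (Msln, Lrrn4, Upk3b, Krt19 and Gpm6a), with sums of 3161 to 5745 in KO fat and 5574 to 10645 in WT fat. Fibroblast markers were higher for 2 of 10 (Pdgfra and Lum) and lower for 1 (Dpp4), with sums of 456807 to 651519 in KO fat and 238760 to 427794 in WT fat. T and B cell markers were higher for 1 of 7 tested, Cd8a, and 6 did not pass. Of 4 platelet markers tested, Pf4 and Itga2b were higher. Of 5 epithelial markers tested Krt7 was lower, and of 3 muscle markers Acta1. For fibroblast, T and B cell and epithelial markers, the counts that passed were not far from the shares of all genes. None of these lists had a marker at 0 in all fat libraries. Their part in the result for the endothelial genes was not tested.

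Sperm and epididymis markers summed to 663, 247 and 1970 in WT columns 1, 3 and 4, and to 3.24 to 13.2 in KO fat. WT column 4, with the highest sum, was the highest WT library for 12 of the 38 genes, Vegfa, Angpt1, Prox1, Mmrn1 and Sox7 among them. Column 3, with the lowest sum among WT columns, was the highest for 22. Without column 4 the log2 fold changes of Vegfc, Nrp1, Angpt1, Prox1 and Mmrn1, none of which passed, changed sign. The part of this tissue in these values was not tested.

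Other genes of vessels were read from lists chosen with earlier results known. Among all genes tested, 17.4% were lower and 16.8% higher in KO fat. For the lists given here and below, the counts of higher genes were near or below that share. Of 22 other endothelial genes, 12 were lower and 2 higher in KO fat. Cav1, the caveolin of endothelium and adipocytes, had a log2 fold change of -1.63 and Tspan7, a tetraspanin, one of -1.47, while Lmo2 and Lyl1, partners in haematopoietic and endothelial transcription, had 1.56 and 0.69 (limma adjusted p from 0.000939 to 0.00395). Of 12 Notch genes, 8 were lower and 1, Rbpj, was higher. Dll4, the tip cell Notch ligand that VEGF induces, averaged 610 ± 231 in KO fat and 1824 ± 705 in WT fat (SD, n = 4 and 3), a log2 fold change of -1.60 (SE 0.34, limma adjusted p = 0.00838). Jag2 and Dll1, also Notch ligands, had log2 fold changes of -1.37 and -1.30, and Nrarp, a Notch target, one of -1.41.

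Of 14 other genes of the VEGF and angiopoietin pathway, 7 were lower and 3 higher (Shc2, Dok2 and Rcan1) in KO fat. Pgf, placental growth factor, a Flt1 ligand, had a log2 fold change of -1.13 and Plcg1, the phospholipase downstream of Kdr, one of -0.87. Shc2 and Dok2, adaptors of receptor kinases, had log2 fold changes of 2.17 and 1.24, with limma adjusted p of 0.000709 and 0.0132. Of 9 BMP genes, 1 was lower and 1 higher, which is not above the shares of all genes. The lower gene was Id3, a target of BMP signalling, at -0.66, and the higher was Bmper, a secreted BMP regulator, at 1.46. Bmp4 and Smad6 had log2 fold changes of -1.41 and -0.65 and did not pass (limma adjusted p = 0.0528 and 0.0762).

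Of 14 pericyte and vascular smooth muscle genes, 7 were lower and 1, Pdgfb, was higher in KO fat, and their summed values were 27350 to 40984 in KO fat and 69144 to 78291 in WT fat. Mcam, CD146, had a log2 fold change of -1.80, Rgs5, a pericyte regulator of G protein signalling, one of -1.73, Acta2, smooth muscle actin, one of -1.67, and Notch3, the mural Notch receptor, one of -0.98. Of 15 hypoxia genes, 6 were lower and 2 higher (Car9 and Slc2a1). Pfkfb3, which drives glycolysis, had a log2 fold change of -1.57, Bnip3, a mitophagy receptor, one of -1.62 and Egln1, the oxygen sensor PHD2, one of -0.45, while Car9, carbonic anhydrase 9, had 2.62 at a low level of 184 ± 58.8 in KO fat and 36.7 ± 31.4 in WT fat. Rbpj, Rcan1, Pdgfb, Slc2a1 and Gpm6a are named after their values were seen.

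To set each gene beside the endothelial genes of its own library, its log2 value was taken relative to the mean log2 value of Pecam1, Cdh5, Tie1, Esam, Cldn5, Icam2, Egfl7 and Robo4. That mean was 11.09 ± 0.29 in KO fat and 12.14 ± 0.33 in WT fat (SD, n = 4 and 3), a difference of -1.05. The 8 genes were chosen with results known, so the relative levels are a description with no test. Relative to them, Nrp2 was 1.42, 2.42, 1.63 and 1.64 in KO fat and 0.53, -0.33 and -0.39 in WT fat, and Angpt2 was -0.82, -0.31, -0.89 and -0.89 in KO fat and -1.98, -2.74 and -2.77 in WT fat. Both were higher in every KO library than in every WT library. The same order held for Pdpn, with a KO minus WT difference of 1.68, Nrp1 with 1.10, Vegfc with 0.91, Plvap with 0.65, Eng with 0.51, Sox17 with 0.51 and Aplnr with 0.49. Since the mean of the 8 genes was itself lower in KO fat, a gene with equal values in both groups lies higher in KO fat on this scale. Nrp1 and Vegfc, with log2 fold changes of 0.05 and -0.14 in fat, lie near that case. How many of all genes hold this order was not counted. Nos3 and Ptprb were the 2 genes lower in every KO library than in every WT library on this scale, at -0.76 and -0.53. Tek, Vwf, Ramp2, She, Gpihbp1 and Erg differed by 0.20, 0.08, -0.07, -0.09, -0.12 and -0.13, with overlapping groups. The groups also overlapped for genes with larger differences, among them Angpt1 at 0.89, Mmrn1 at 0.56, Sox7 at -0.71, Vegfa at -0.69, Podxl at -0.36 and Kdr at -0.32.

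**Figure D3:**
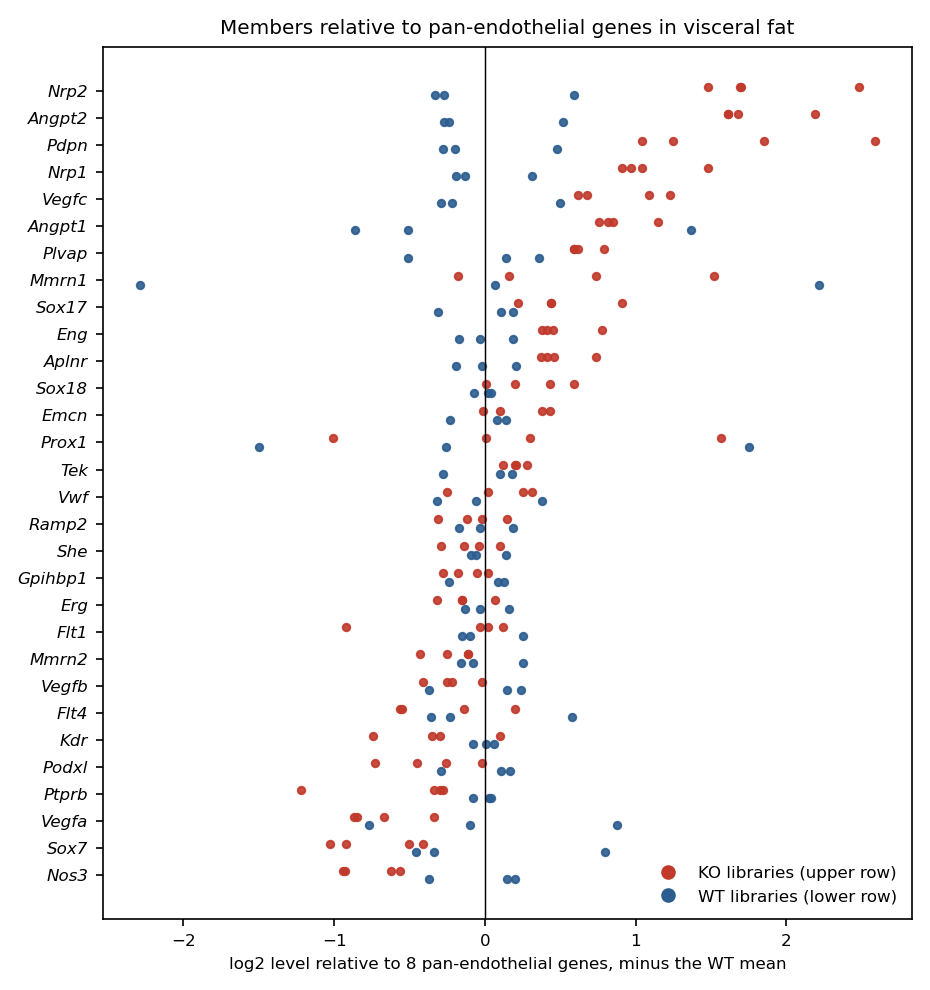
Log2 value of each gene in visceral fat relative to the mean of 8 pan-endothelial genes of the same library, minus the WT mean of that gene, with the 4 KO libraries in the upper row and the 3 WT libraries in the lower row. Nrp2 and Angpt2 lie to the right in all KO libraries, Nos3 and Ptprb to the left, and the 8 genes that make up the mean are not drawn. The mean of the 8 genes was lower in KO fat, so a gene with equal values in both groups lies to the right in KO libraries.

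The level of the 38 genes differed widely between the tissues. On a per-length scale (reads per kilobase of exon, divided by the gene reads of the library), the median gene was 45.5 times higher in WT fat than in tumours of WT hosts, and 27 of the 38 were at least 10 times higher. The tables were normalised separately, so levels of the tissues are set side by side without a test. Cdh5 had the highest level in fat, at 55.5 ± 18.6 in KO fat and 112 ± 25.6 in WT fat, against 1.58 ± 0.525 in tumours of KO hosts and 1.62 ± 0.234 in tumours of WT hosts. Ptprb and Tek were at the other extreme of the ratio, 1005 and 351 times higher in WT fat. Eng, Vegfb, Vegfa and Sox7 had ratios of 1.15, 1.32, 1.48 and 1.71. Nrp2 was the only one of the 38 with a higher level in tumours, at 19.9 ± 3.71 in KO fat and 10.9 ± 2.31 in WT fat, against 46 ± 8.65 in tumours of KO hosts and 43.5 ± 6.73 in tumours of WT hosts. The tumour values of several genes rest on few reads.

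**Figure D4:**
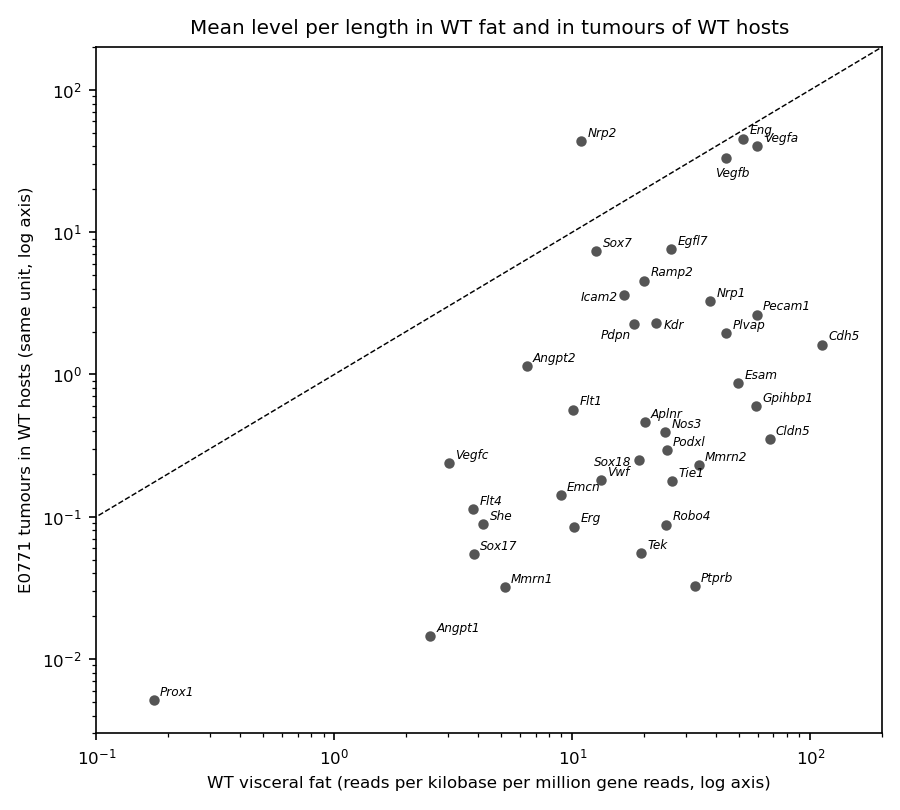
Mean level per length of the 38 genes in WT visceral fat (horizontal) and in E0771 tumours of WT hosts (vertical), in reads per kilobase of exon scaled to library size, on log axes, with a dashed line at equal levels. Nrp2 alone lies above the line, and Eng, Vegfa and Vegfb lie close to it.

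In tumours, edgeR's quasi-likelihood test on the counts (TMM scaling, filterByExpr) covered 31 of the 38 genes. Tek, Angpt1, Sox17, Sox18, Prox1, Mmrn1 and Ptprb were left out by the filter on low counts. No gene passed, among the 31 or among all 13109 tested (0%), and DESeq2 passed 0.465% of 12675 genes, of which 0 were among the 38. At an unadjusted p under 0.05, 7 of the 31 genes differed (22.6%), against 6.9% of all genes tested. Of these, 5 were lower in KO hosts (3.11% of all genes) and 2 higher (3.79%). The median log2 fold change of the 31 genes was -0.29, with 24 below 0. The groups were without overlap in She and Nrp1 alone, where 4.93% of all genes had every KO library below every WT library and 5.68% had every KO library above.

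She had 4, 1 and 2 reads in KO hosts and 18, 26 and 15 reads in WT hosts. The normalised reads were 3.37, 1.27 and 2.25 in KO hosts and 17.7, 24.8 and 13.9 in WT hosts, so the KO libraries were all lower, on a handful of reads. The log2 fold change was -2.91 (SE 0.67, edgeR adjusted p = 0.439). Sox17, which the filter left out, had 0 reads in each of 3 KO libraries and 8, 7 and 9 reads in WT hosts. A count of 0 allows up to 3 reads in a library, and no fold change was tested. The exact permutation test over 20 relabellings cannot go below 0.1 in tumours, which She and Sox17, lower in every KO library, and Nrp1, higher in every KO library, reached.

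Nrp1 had 1689, 1337 and 1235 normalised reads in KO hosts and 793, 791 and 1213 in WT hosts. WT replicate 3 was almost as high as the lowest KO tumour, and the log2 fold change was 0.61 (SE 0.19, edgeR adjusted p = 0.58). Kdr had 418, 217 and 321 in KO hosts and 791, 690 and 355 in WT hosts. The groups overlapped through WT replicate 3, with a log2 fold change of -0.94 (SE 0.30, edgeR adjusted p = 0.596). Pdpn had 321, 401 and 121 in KO hosts and 96.5, 99.3 and 164 in WT hosts. Replicate 3 of each host ran against the others, with a log2 fold change of 1.23 (SE 0.38, edgeR adjusted p = 0.57). Aplnr had 20.2, 8.92 and 15.7 in KO hosts and 53.2, 82.1 and 14.9 in WT hosts. Here too WT replicate 3 lay among the KO tumours, and the log2 fold change was -1.71 (SE 0.60, edgeR adjusted p = 0.652).

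The ligand Vegfa had 5433, 3099 and 3569 normalised reads in tumours of KO hosts and 3943, 6719 and 4506 in those of WT hosts. Vegfb had 1548, 1117 and 1403 in KO hosts and 1630, 1631 and 1432 in WT hosts. Both overlapped between hosts, with log2 fold changes of -0.32 (95% confidence interval -0.82 to 0.17) and -0.20 (-0.52 to 0.11). Angpt2 had 99.5, 65 and 109 in KO hosts and 136, 141 and 92 in WT hosts. Flt1 had 409, 124 and 167 in KO hosts and 186, 222 and 262 in WT hosts. Both overlapped between hosts and did not pass, with 95% confidence intervals of -1.07 to 0.21 for Angpt2 and -0.73 to 0.88 for Flt1.

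**Figure D5:**
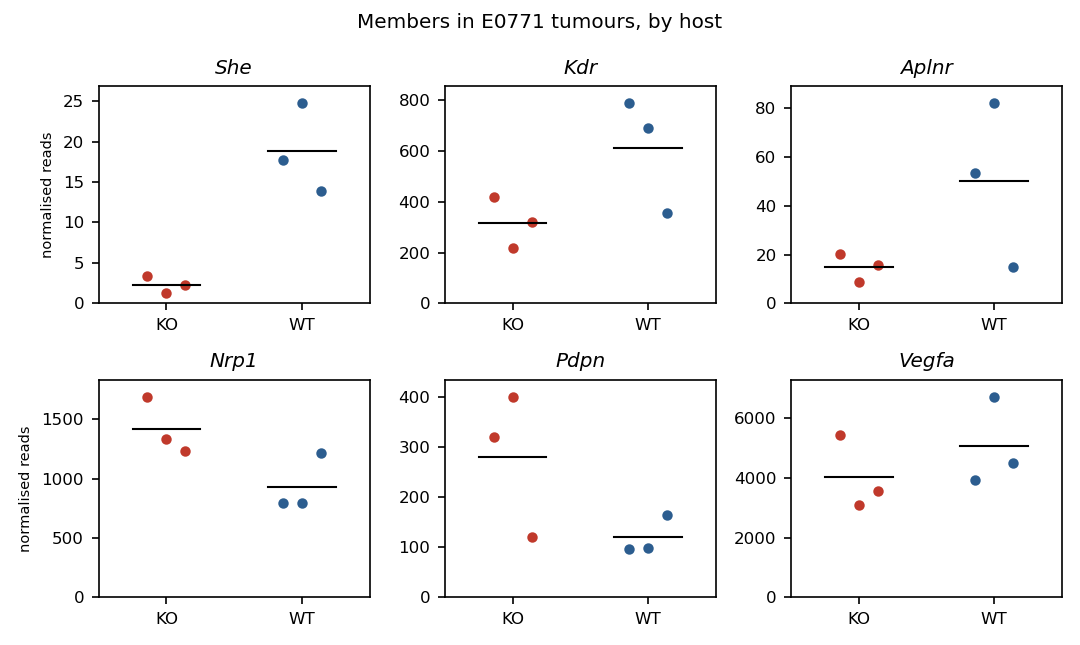
Normalised reads per library in E0771 tumours, on linear axes that start at 0, for the 5 genes of smallest p and Vegfa, with KO hosts on the left and WT hosts on the right (3 libraries each) and a bar at the mean. She separates the hosts with KO tumours at no more than 3.37 and WT tumours at 13.9 or more normalised reads, and none of the 6 genes passed the test.

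No gene of these lists or of the marker lists passed edgeR in tumours. The summed macrophage markers ranged over 49598–68235 in KO hosts, overlapping the 51492–59009 of WT hosts. The summed skeletal muscle markers ranged over 117–214 in KO hosts, below the 234–551 of WT hosts. The summed platelet markers ranged over 450–626 in KO hosts, above the 325–437 of WT hosts. The summed angiopoietins and Tie receptors ranged over 103–132 in KO hosts, below the 140–178 of WT hosts. The sums of the other lists overlapped between hosts. Of all single genes tested, 4.93% had every KO library below every WT library and 5.68% above. Of 7 T and B cell markers, 4 had an unadjusted edgeR p under 0.05, against 6.9% of all genes tested. Cd8a and Cd3e, those of smallest p, had log2 fold changes of 1.01 and 0.85 (edgeR adjusted p = 0.541 and 0.646). The log2 fold changes of the 7 markers went both ways, with 4 below 0 and 3 above, and a median of -0.14. The sums over all 7 overlapped between hosts, at 2593–5583 in KO hosts and 2023–2980 in WT hosts. The part of these cells in the tumour values was not tested. Esm1, an endothelial tip cell gene, had a log2 fold change of -1.42 (edgeR adjusted p = 0.676), and Fli1, an ETS factor of endothelium and blood cells, one of 0.73 (edgeR adjusted p = 0.646).

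Whether the KO effect differed between fat and tumours was tested for the 31 genes measured in both, as the interaction of tissue and host in limma over 12529 genes. The difference passed for 7 of 31 (22.6%), near the 18.7% of all genes, with 5 below 0 (8.05% of all genes) and 2 above (10.6%). The KO effect was lower in fat than in tumours for Nos3, at -1.81 in fat and 0.05 in tumours, a difference of -1.86 (SE 0.49, limma adjusted p = 0.0187). For Pecam1 it was -0.82 in fat and 0.33 in tumours, a difference of -1.15 (SE 0.26, limma adjusted p = 0.00938), with a p of 0.00429 in the exact permutation over 700 relabellings. Vegfb differed by -1.07 (SE 0.20, limma adjusted p = 0.00416), Sox7 by -1.72 (SE 0.46, limma adjusted p = 0.0211) and Icam2 by -1.17 (SE 0.35, limma adjusted p = 0.0333). The exact permutation p was 0.0629 for Vegfb, 0.0371 for Nos3, 0.03 for Sox7 and 0.0186 for Icam2.

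Angpt2 was the other way round, with an effect of 0.71 in fat and -0.44 in tumours, a difference of 1.15 (SE 0.31, limma adjusted p = 0.021, exact permutation p = 0.00571). Without tumour WT replicate 1 or 2 its adjusted p was 0.0531 or 0.0556. She, with -1.14 in fat and -2.60 in tumours, differed by 1.46 (SE 0.44, limma adjusted p = 0.0368), but with a pseudocount of 5 the difference was 0.56 (adjusted p = 0.326). The permutation p of She was 0.263. Icam2 was lost on leaving out any of 8 libraries, with adjusted p of up to 0.086. Vegfa, with -1.74 in fat and -0.33 in tumours, differed by -1.41 (95% confidence interval -2.41 to -0.41, limma adjusted p = 0.0504), which did not pass. Kdr differed by -0.47 (95% confidence interval -1.50 to 0.57), so its effects in the tissues could not be told apart.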

How the data were processed

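RNA libraries were made with a stranded mRNA kit, per the labels' protocols. TopHat, CASAVA, DESeq2 and the mm10 build are named, without versions, per the submitters' processing notes. The authors deposited raw read counts per gene for tumours and, for fat, a normalised signal per gene in which reads are divided by 1 factor per library: of 117220 values above 0, 117220 were whole multiples of the smallest value within 0.001. The counting tool and strand setting are not given in the sources used here. The 5 summary lines of the tumour table, 66.7% to 72.2% of its entries, stayed out. WT fat columns are numbered 1, 3 and 4, unlike the titles, so they were assigned to the group only.

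Fat was tested with limma 3.58.1 (log2(value + 1), genes with 10 or more in at least 3 libraries) and tumours with edgeR 4.0.16, in R 4.3.3, two-sided. DESeq2 1.42.0 was an alternative. Fat fold changes understate changes of low genes. Normalised tumour reads are counts scaled by TMM library sizes. No 2 libraries of a group were duplicates. The scripts were tested on simulated data. Promoters are from RefSeq, and gene lengths and gene positions from GENCODE M21. Per-library values were given for ligands, receptors, lymphatic genes, the 10 further genes of smallest p in fat and the 5 in tumours. Up to 4 genes per other list were named by p. Members and lists were chosen with earlier results of these data known. Alternatives covered pseudocount, filter, scaling, tool, replicate block and each left-out library.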

Additional observations from a re-analysis of the deposited data

Results flagged for a closer look

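Values that stood apart within a group were looked for with Dixon's test, which by chance marks about 1 in 20 groups. In KO fat, 2 genes were marked: Vegfc, whose highest library was at 241, and Ramp2, whose lowest library was at 669 in KO replicate 2. In both the gap to the next library took most of the range of the group.

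The KO effect differed between fat and tumours, by the interaction in limma, for 7 of 31 genes (22.6%), near the 18.7% of all genes tested. The differences, fat minus tumours on the log2 scale, were -1.15 for Pecam1, -1.07 for Vegfb, 1.15 for Angpt2, -1.72 for Sox7, -1.86 for Nos3, -1.17 for Icam2 and 1.46 for She. The value of She fell to 0.56 with a pseudocount of 5 (limma adjusted p = 0.326), and its exact permutation p was 0.263. The 2 tissues were deposited as separate tables.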

How the results depend on the processing

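In fat, 26 genes of the 38 were lower under a pseudocount of 5, no filter, TMM scaling and edgeR on recovered reads, and leaving out 1 library gave 19 (without WT column 3) to 29 lower and 1 to 3 higher. Over all genes, leaving out 1 library gave 1575 to 2691 higher and 1490 to 2567 lower, the lowest without WT column 3. Without WT column 4 the log2 fold changes of 5 genes that had not passed turned, to 0.07 for Vegfc, -0.05 for Nrp1, 0.49 for Angpt1, 0.01 for Prox1 and 0.57 for Mmrn1. In tumours, genes higher and lower numbered 47 and 12 with DESeq2 and 21 and 1 with no filter, and leaving out 1 library gave 0 to 10 higher and 0 to 11 lower, with 0 of the 38 among them in each. For the difference between tissues, genes that passed above 0 among the 31 numbered 1 with a pseudocount of 5 and 1 with edgeR. Leaving out 1 library, an alternative chosen after seeing the data, gave 0 to 3 above and 4 to 8 below, and 653 to 1104 of all genes below. The cause was not tested.

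The labels do not say that equal replicate numbers pair the libraries. Deviations of libraries with the same number correlated at -0.22, 0.01 and -0.22 in tumours and -0.01, 0.06 and 0.25 in fat. Those of libraries with unlike numbers correlated at -0.1 to 0.27 in tumours and -0.23 to 0.3 in fat. These few values cannot settle whether libraries were paired, and the WT fat columns are not tied to replicate numbers. With the number as a replicate block, fat had 1430 genes higher and 1475 lower, and 1 higher and 25 lower of the 38, and tumours had 0. Depth limits the tumour values of She, Sox17, Tek, Prox1 and other genes with few reads.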
